A study of Mus musculus with 3 samples.

Results

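Nuclear RNA that came down with an antibody against Zfp217 was compared with input RNA of CCE cells, a line of mouse embryonic stem cells. The set described here is the whole table that the authors deposited for this antibody: 8120 transcripts of 5933 gene symbols, out of 13595 transcripts listed for either of the 2 antibodies of the series. Of these, 2511 transcripts had an input of at least 1 FPKM (sequenced fragments for each kilobase of a transcript, relative to the size of the library), 2021 had an input between 0.01 and 1 FPKM, and 3588 had an input under 0.01 FPKM. The first set carries the ratios given below, and the last is described apart, by its RIP level only.

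All cells were untreated CCE cells, grown without feeder cells on gelatin in serum medium with leukemia inhibitory factor (LIF), a cytokine that keeps stem cells undifferentiated. A lysate of isolated nuclei was mixed with the Zfp217 antibody (Santa Cruz), and RNA in the captured complexes was extracted and sequenced (RIP-seq). There was 1 Zfp217 RIP library and 1 input library, and a Mettl3 RIP library (antibody from Bethyl) was set against the same input. CCE is a single line, and no pull-down with a control antibody was analysed here, so RNA held by Zfp217 and RNA held by the beads or the antibody cannot be told apart.

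Zfp217 is a zinc finger protein best known as a part of corepressor complexes on chromatin, with the demethylase Kdm1a, the Rcor proteins, the histone deacetylases Hdac1 and Hdac2 and the corepressor Ctbp. The series title ties it to m6A, a methyl mark on adenosines of RNA that Mettl3 writes together with Mettl14, Wtap and further partners. In embryonic stem cells m6A is known to lie on many transcripts of pluripotency regulators and to shorten their lifetime. RIP-seq reads the RNA that a protein holds directly or through other proteins, and does not show the site of contact.

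What the table lists is already selected. RIP values start at 1.0 FPKM and, wherever the input is above 0, plain ratios of RIP to input start at 1.5, so RNA that was depleted or equal is not listed. Every count below is a count of listed transcripts, and a gene that is missing may lie on either side of these limits. From the values of short RNAs the depth came to 6950000 scaled fragments for the RIP and 5810000 for the input. With 1 library for each group there is no p-value, and a ratio compares the libraries, not conditions. The 95% intervals beside ratios come from the estimated numbers of reads (exact Clopper-Pearson) and cover counting error only.

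Among transcript classes with at least 10 members at an input of at least 1 FPKM, small nucleolar RNAs (snoRNAs) had the highest share at 2-fold or above, and their sequences show what they are. snoRNAs guide the chemical modification of other RNAs: C/D box RNAs guide 2′-O-methylation and carry a C box (TGATGA) near the 5′ end and a D box (CTGA) near the 3′ end, and H/ACA RNAs guide pseudouridylation and end in ACA followed by 3 bases. The following 3 are a C/D box RNA with a high ratio from few reads, and the H/ACA RNAs whose counting interval lay above 1. Sequences are GENCODE M21 transcripts on GRCm38, with the C and D boxes or the ACA in capitals.
SNORD12: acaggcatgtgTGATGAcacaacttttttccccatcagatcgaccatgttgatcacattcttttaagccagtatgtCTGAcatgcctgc
SNORA84: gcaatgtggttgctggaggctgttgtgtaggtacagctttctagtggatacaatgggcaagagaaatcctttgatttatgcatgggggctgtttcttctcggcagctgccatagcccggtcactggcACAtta
SNORA26: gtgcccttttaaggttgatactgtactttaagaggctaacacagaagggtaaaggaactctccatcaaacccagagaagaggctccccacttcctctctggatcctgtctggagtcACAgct

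SNORD12 lies at chr2:167064998-167065086 (plus strand) within the noncoding host gene Zfas1. SNORA84 lies at chr16:52105015-52105147 (minus strand), in no other gene of the annotation on the same strand, and SNORA26 at chr1:86087301-86087422 (plus strand) within Psmd1. Of 71 listed snoRNAs that matched the annotation, 63 lay within another gene on the same strand, 10 of them in ribosomal protein genes. On the sense strand, a TGATGA within the first 25 bases and a CTGA within the last 20 were found together in 18 of the 71, and in 20.2% of 1558 annotated snoRNAs. The ACA with 3 bases after it, in RNAs of at least 110 bases, was found in 25 of the 71 and in 17.5% of all annotated snoRNAs. In the remaining 28 neither pattern was found in these windows, which says nothing about their class, since variant boxes were not searched.

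Among the 19 snoRNAs with an input of at least 1 FPKM, 13 were at least 2-fold higher in the RIP, where 2-fold is measured throughout as log2((RIP + 1)/(input + 1)) of at least 1. Over all 2511 listed transcripts with such an input, 519 were, or 20.7%. SNORD12 was at 260 FPKM in the input and 1957 FPKM in the RIP, a ratio of 7.54. Few reads lie behind these levels: the 8 RIP reads of SNORD12 give 1957 FPKM because an RNA of 89 bases is shorter than most library fragments. At this length 1 RIP read stands for 245 FPKM, so the input level of SNORD12 is of the order of 1 read. Its ratio has no interval, since input reads were not estimated for RNAs under 100 bases. SNORA84 was at 154 FPKM in the input and 411 FPKM in the RIP (10 and 32 estimated reads), 2.66-fold higher (95% interval 1.28 to 6.07). SNORA26 was at 388 FPKM in the input and 787 FPKM in the RIP (14 and 34 reads), 2.03-fold higher (1.06 to 4.1). For these H/ACA RNAs the interval lay above 1, but barely so for SNORA26.

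Scarna2, a Cajal body RNA that guides methylation of the spliceosomal U2 RNA, was the small RNA with by far the most reads. This RNA of 414 bases (chr3:108554338-108554751, minus strand) was at 84.4 FPKM in the input and 524 FPKM in the RIP, from about 135 and 1007 reads, a ratio of 6.22 (5.19 to 7.49). It was not listed for Mettl3. The long C/D box RNA snoU90, which resides in Cajal bodies, was at 66.5 FPKM in the input and 131 FPKM in the RIP, or 1.96-fold higher (1.5 to 2.59). SCARNA20 was at 18.7 FPKM in the input and 109 FPKM in the RIP, but the input value is 1 read, so its ratio of 5.84 has an interval of 0.751 to 263. Of the 12 members of the list of small nucleolar and Cajal body RNAs that were at least 2-fold higher, 8 had an interval, and it lay above 1 in 4. This list was drawn by gene symbol and holds Scarna2 but not snoU90 or SCARNA20.

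The spliceosomal RNAs were listed at few reads too. U2 was at 6.35 FPKM in the input and 31.3 FPKM in the RIP (2.03 and 12 reads), 4.93-fold higher (1.11 to 44.4). U1 was at 16 FPKM in the input and 61.4 FPKM in the RIP, a ratio of 3.84, and in the Mettl3 table the same U1 transcript had a ratio of 3.83. These RNAs exist in many near-identical copies, between which reads cannot be placed with certainty.

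Most other small RNAs had an input of exactly 0, and their high FPKM values stand for few reads. The highest value of the near-zero set was SNORD58 at 7027 FPKM, which is 4 reads on an RNA of 66 bases. Scarna9 stood at 4430 FPKM from 4 reads, snoU2_19 at 3778 FPKM from 6 reads, and the mitochondrial histidine transfer RNA mt-Th at 4661 FPKM from 3 reads. Of 121 short RNAs of known length with an input of 0, 119 (98.3%) were a whole number of reads within 0.1, once 1 RIP read was set to 2001 FPKM at 65 bases, 66.7 FPKM at 107 bases and 1.11 FPKM at 268 bases. These steps were set from the same short RNAs. Among the 42 listed microRNA genes, 36 had an input of 0, and 17 of the 27 with a read estimate stood at 1 read within 0.1. No ratio of these RNAs can be read as enrichment at this depth.

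**Figure D1:**
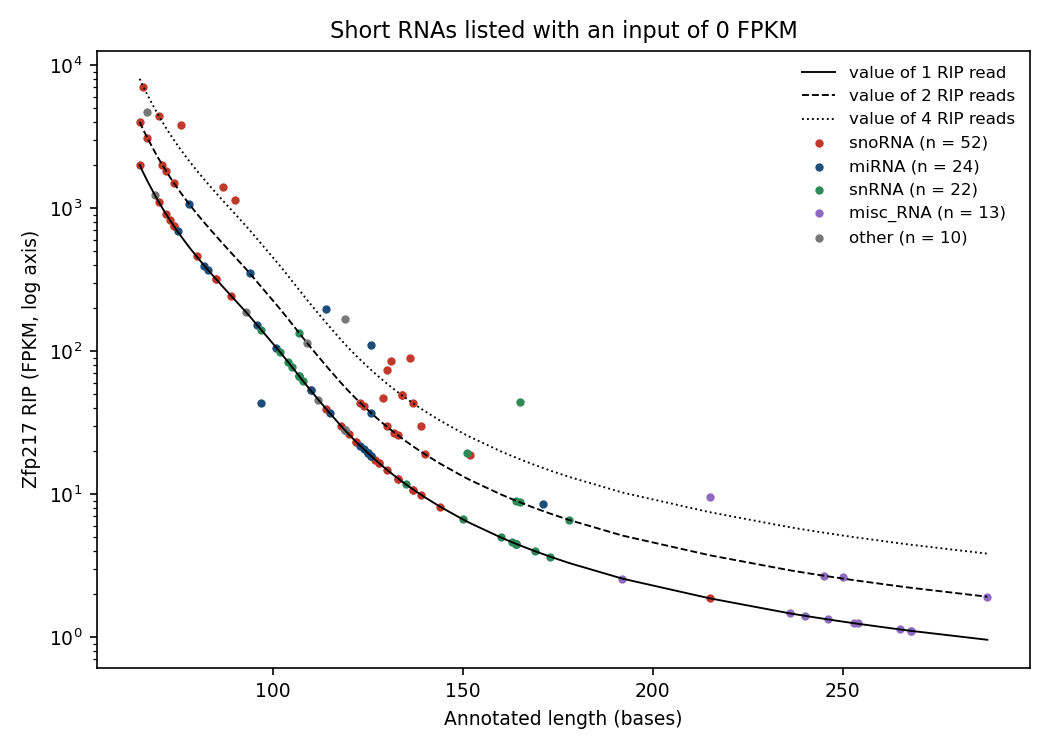
RIP level in FPKM (log axis) against annotated length in bases for the short RNAs with an input of 0, coloured by class, with lines at the value of 1, 2 and 4 RIP reads. Most points sit on the lines or between them at another whole number of reads, 119 of 121 in all, and the value of 1 read falls from 2001 FPKM at 65 bases to 1.11 FPKM at 268 bases.

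Among the 2511 transcripts with an input of at least 1 FPKM (2321 symbols), the median level was 2.30 FPKM in the input and 4.87 FPKM in the RIP. The median log2 ratio was 0.69 (quartiles 0.56 and 0.93, maximum 3.31), and the median plain FPKM ratio was 1.87 (1.65 and 2.31). Most listed transcripts were thus close to the lower limit of the table: 1523 (60.7%) were under 2-fold in the plain ratio and 988 (39.3%) at least 2-fold, 247 were at least 3-fold, 46 at least 5-fold and 6 at least 10-fold. The interval of the plain ratio lay above 1 in 1658 of the 2227 transcripts that had one (74.4%), and in 409 of 438 of those at least 2-fold higher. Both sets were chosen by the same values from which these intervals come. The shares were therefore largely set by that choice and are no test of enrichment. Just inside the limit stood 459 transcripts with a ratio under 1.6, among them Ppp2r5a at 16.3 FPKM in the input and 24.4 FPKM in the RIP. What lies just outside is not listed.

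The plain and the log2 ratio with its pseudocount ran opposite ways with the input level up to 50 FPKM. The median plain ratio was 1.98 for 1072 transcripts with an input of 1 to 2 FPKM, 1.83 for 924 transcripts at 2 to 5 FPKM, 1.72 for 318 at 5 to 10 FPKM and 1.71 for 164 at 10 to 50 FPKM. At 50 FPKM and above it was 2.03 over 33 transcripts, which include short RNAs of few reads. The median log2 ratio was 0.66, 0.70, 0.70, 0.74 and 1.02 in the same order, from the lowest input to the highest.

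**Figure D2:**
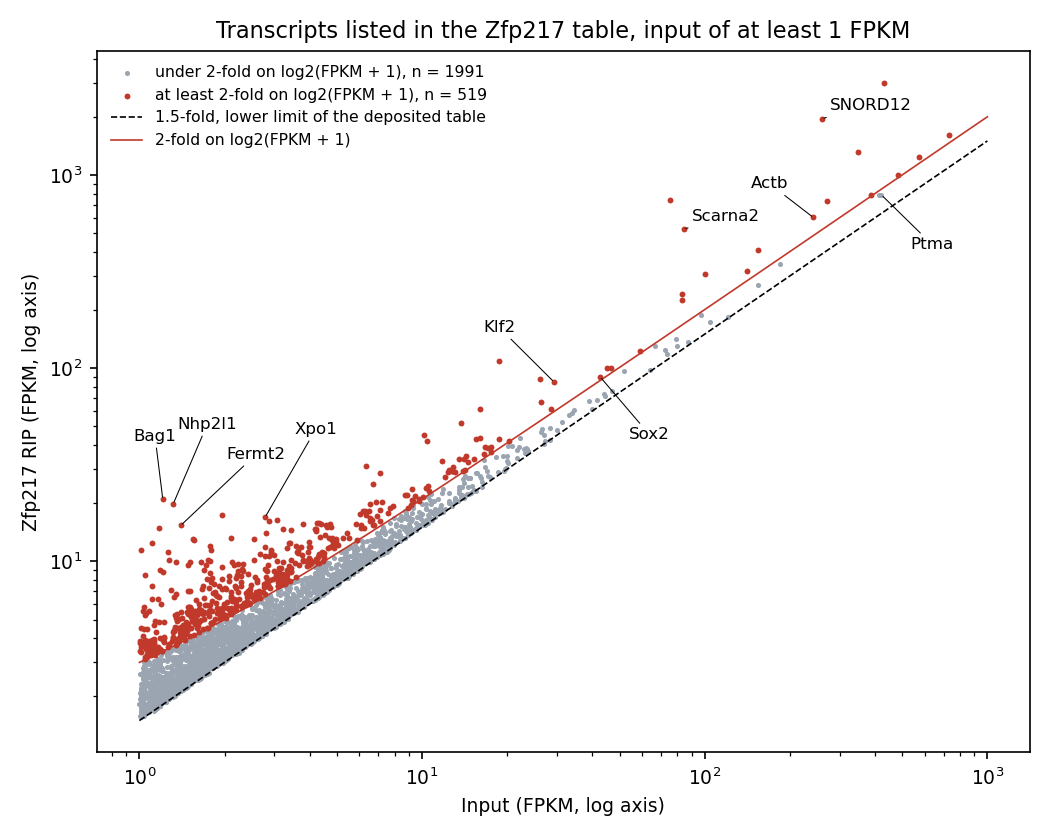
Zfp217 RIP against input in FPKM, both on log axes, 1 point per listed transcript with an input of at least 1 FPKM, 1 microRNA row far off the axes left out. Points fill the band just above the 1.5-fold limit (dashed), and red points, 20.7% of transcripts, lie at or above 2-fold on log2(FPKM + 1) (solid line).

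The 20 genes with the highest log2 ratios, among transcripts of genes spanning at least 300 bases, were of many kinds. Bag1, a co-chaperone and nucleotide exchange factor of Hsp70 (ENSMUST00000030125, gene at chr4:40936398-40948294), was at 1.21 FPKM in the input and 21 FPKM in the RIP. From about 8.13 and 169 reads this is a ratio of 17.3 (8.65 to 40.5). The Mettl3 RIP held the same transcript at 16.7 FPKM, a ratio of 14.1.

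Nhp2l1, which binds the U4 RNA and the C/D box snoRNAs, was at 1.32 FPKM in the input and 19.8 FPKM in the RIP through a noncoding transcript of its gene, a ratio of 15.1 (6.13 to 48.8), against 22.7 for Mettl3. Psip1, a chromatin reader of methylated histone H3, had a short transcript at 1.18 FPKM in the input and 14.8 FPKM in the RIP, but the input value rests on 2.22 reads and the ratio of 12.6 has an interval of 3.41 to 92.7. Fermt2, an activator of integrins, had a firmer value: 1.4 FPKM in the input and 15.3 FPKM in the RIP, from 25.7 and 337 reads, a ratio of 11.0 (7.33 to 17.1), against 14.2 for Mettl3. The zinc transporter gene Slc39a7 was at 1.02 FPKM in the input and 11.5 FPKM in the RIP, a ratio of 11.3 (6.44 to 21.8), against 4.35 for Mettl3.

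Further down the 20 highest genes came Ebna1bp2 (ribosome assembly) at 1.95 and 17.3 FPKM in input and RIP, Hnrnpd (an mRNA-stability factor) at 1.56 and 12.9 FPKM, and the zinc finger gene Zbtb44 at 1.27 and 11.2 FPKM. Xpo1, the main nuclear exporter of proteins and of some RNAs (gene at chr11:23256041-23298249), was at 2.79 FPKM in the input and 16.9 FPKM in the RIP. With about 81 and 590 reads, its ratio of 6.08 had an interval of 4.81 to 7.77, and its Mettl3 ratio was 2.50. Clk1, a kinase of SR splicing factors, was at 1.79 FPKM in the input and 11.5 FPKM in the RIP, 6.41-fold higher (3.87 to 11.3), with a Mettl3 ratio of 2.84. Psip1, Ebna1bp2, Scarna2, Med28 and G3bp2 were the 5 genes among the 20 with no entry in the Mettl3 table. G3bp2, a stress granule protein, was at 1.21 FPKM in the input and 8.85 FPKM in the Zfp217 RIP, a ratio of 7.29 (4.48 to 12.6).

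**Figure D3:**
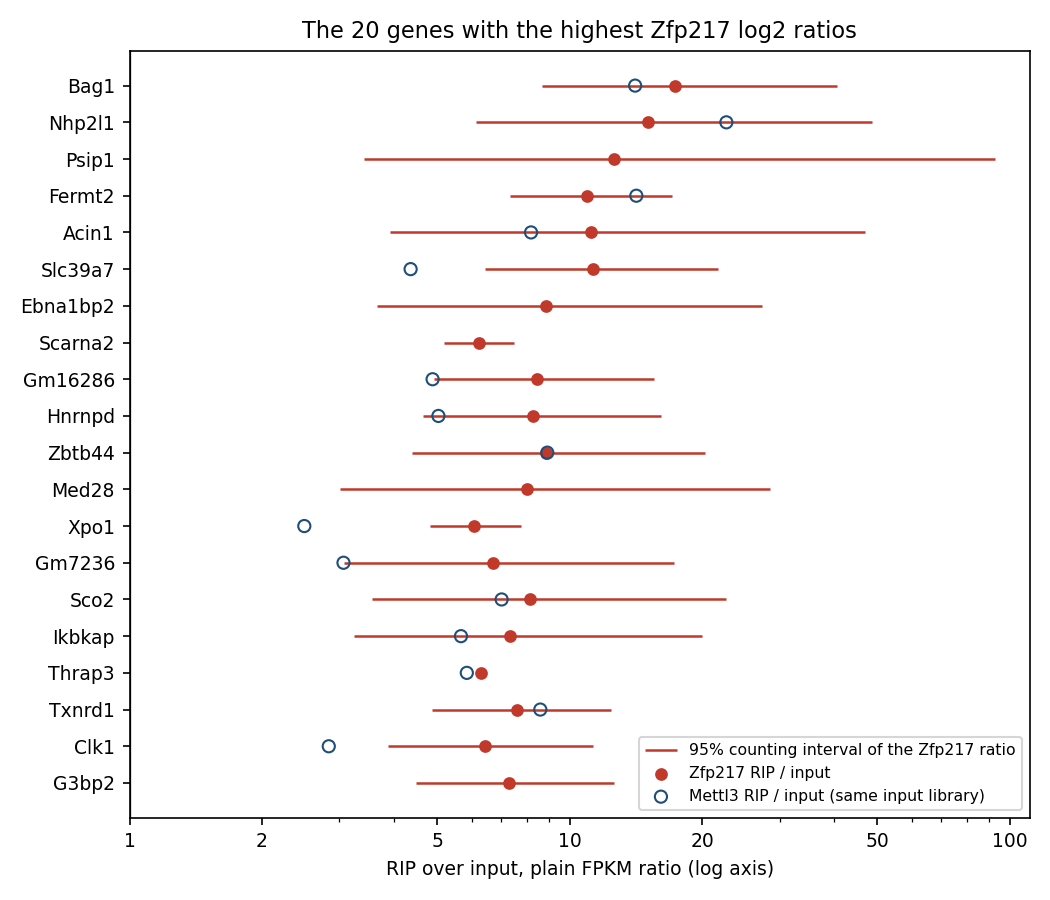
Plain FPKM ratio of Zfp217 RIP over input (filled points, log axis) with its 95% counting interval for the 20 genes with the highest log2 ratios, and the Mettl3 ratio over the same input library (open points) where the Mettl3 table lists the transcript. Intervals are wide where the input had few reads, as for Psip1 (3.41 to 92.7), and narrow for Scarna2 and Xpo1. Xpo1, Clk1 and Slc39a7 have Mettl3 ratios of 2.50, 2.84 and 4.35. The genes were picked by their Zfp217 ratios, and the intervals hold no counting error of the Mettl3 library. A difference between the antibodies was not tested.

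Where genes span 300 bases or more and the input reached 1 FPKM, the transcripts of Ptma and Actb had the highest RIP levels, followed by Scarna2. Ptma, the gene of prothymosin alpha, was at 422 FPKM in the input and 788 FPKM in the RIP, 1.87-fold higher (1.78 to 1.95), at the median of transcripts with an input of at least 1 FPKM. Actb, the gene of beta-actin, was at 242 FPKM in the input and 603 FPKM in the RIP, 2.49-fold higher (2.38 to 2.61). Tpt1 was at 78.9 and 142 FPKM, Set at 79.6 and 130 FPKM, and Rps27a at 87.2 and 137 FPKM. Of these messenger RNAs, Ptma, Tpt1, Set and Rps27a were under 2-fold and Actb above it.

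Markers of embryonic stem cells were among the listed genes. Of 19 embryonic stem cell markers 12 were listed (Pou5f1, Sox2, Nanog, Esrrb, Klf2, Klf4, Tbx3, Sall4, Dppa3, Dppa4, Fgf4 and Tet1), and none of 7 primitive endoderm, 6 trophectoderm and 4 neural markers. Dnmt3b and Otx2 were the listed ones of 6 markers of epiblast and early differentiation, and Vim of 6 fibroblast markers. Since the table lists only RNA enriched in the RIP, a missing marker may still be expressed. Of 11 mitochondrial genes used as a sign of RNA from outside the nucleus, mt-Co2 was listed, at 9.11 FPKM in the input and 14.3 FPKM in the RIP, 1.57-fold higher (0.98 to 2.55). Over all 37 mitochondrially encoded genes 5 were listed, among them mt-Nd6 at 4.39 FPKM in the input and 9.70 FPKM in the RIP, 2.21-fold higher (1.02 to 5.2).

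Of 41 genes on the list of pluripotency factors 25 were listed, and 21 transcripts of 18 genes had an input of at least 1 FPKM. Of these 9 transcripts (42.9%) passed 2-fold, and their median log2 ratio was 0.88, beside 20.7% and 0.69 over all. In the plain ratio 10 of the 21 (47.6%) were at least 2-fold, beside 39.3% of all. The 9 were of Tcl1, Sall4, Klf2, Sox2 (both transcripts), Otx2, Mycn, Tbx3 and Trim28.

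Tcl1, a cofactor of the kinase Akt, was at 1.77 FPKM in the input and 10.1 FPKM in the RIP, a ratio of 5.68 (3.15 to 11.1). Sall4, a zinc finger partner of Oct4, had a short transcript at 1.72 FPKM in the input and 9.54 FPKM in the RIP, a ratio of 5.56 (2.39 to 15.5). The Mettl3 ratios were 4.43 and 6.64.

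Klf2, a Krüppel-like factor of naive pluripotency, was at 29.3 FPKM in the input and 84.8 FPKM in the RIP, 2.89-fold higher (2.54 to 3.31), and had no entry for Mettl3. Sox2, the partner of Oct4 on DNA (chr3:34650405-34652461, a single exon), was at 42.7 FPKM in the input and 90.05 FPKM in the RIP, 2.11-fold higher (1.90 to 2.35). A further Sox2 transcript of the authors' annotation was at 2.60 and 7.98 FPKM. Tbx3, a T-box factor of self-renewal, was at 7.07 FPKM in the input and 16.1 FPKM in the RIP, 2.28-fold higher (1.93 to 2.71).

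The remaining core factors were listed closer to the limit. Nanog, the homeodomain factor of the network, had transcripts at 18.6 and 29.0 FPKM (ratio 1.56, 1.32 to 1.84) and at 14.8 and 27.0 FPKM (1.83, 1.51 to 2.22) in input and RIP. Pou5f1, the gene of Oct4, was listed through minor transcripts, the higher at 2.82 FPKM in the input and 5.22 FPKM in the RIP, whose ratio of 1.86 had an interval of 0.96 to 3.77. Myc was at 4.22 and 7.36 FPKM, 1.75-fold higher (1.25 to 2.46). Tcf7l1, a repressor of the Wnt pathway, was the lowest at 2.90 and 4.47 FPKM, with an interval of 0.97 to 2.50. Prdm14 was not listed.

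Klf4 and Esrrb stood apart from these by an input near 0. The Klf4 transcript (ENSMUST00000107619) was listed at 0.003 FPKM in the input, 51.8 FPKM in the Zfp217 RIP and 53.6 FPKM in the Mettl3 RIP, the Zfp217 value standing for about 1042 reads. Esrrb, an orphan nuclear receptor, was listed at 0.011 FPKM in the input, 5.13 FPKM in the Zfp217 RIP and 46.3 FPKM in the Mettl3 RIP. The genes have 3 and 6 annotated transcripts, and how many input reads were given to their unlisted transcripts cannot be told from the table, so no fold is given.

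Among the m6A writers, 7 of 11 genes were listed, with 7 transcripts of 5 genes at an input of at least 1 FPKM, of which 1 (14.3%) was at least 2-fold higher. In the plain ratio 4 of the 7 (57.1%) were, beside 39.3% of all, so the share lay under the background on one scale and above it on the other. Their plain ratios lay between 1.59 and 2.19, with a median of 2.01, beside 1.87 over transcripts of any gene with this input. Rbm15 and Rbm15b, which bring the writer complex to its target RNAs, were at 8.77 and 17.6 FPKM (2.01-fold, 1.71 to 2.37) and at 5.33 and 11.4 FPKM (2.14-fold, 1.81 to 2.54) in input and RIP. Wtap, the regulatory subunit, had 3 transcripts at this input level, and the highest, at 5.90 and 12.9 FPKM, was 2.19-fold higher (1.68 to 2.87). Mettl14, the partner that holds Mettl3 on RNA, was at 2.26 and 3.77 FPKM (1.67-fold, 1.09 to 2.59), and Cbll1, the Hakai ubiquitin ligase, at 2.70 and 4.29 FPKM (1.59-fold, 1.15 to 2.22). Mettl3 and Zc3h13 were not listed. In the Mettl3 table the ratios of Rbm15 and Cbll1 were 3.46 and 4.35, that of Rbm15b was 1.84, and of the Wtap transcripts with this input the table holds the one at 4.19 and 8.66 FPKM here, with 1.68.

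Of 16 genes of m6A readers and erasers 8 were listed. None of 6 transcripts with an input of at least 1 FPKM was 2-fold higher on the log2(FPKM + 1) scale, beside 20.7% of all. In the plain ratio 2 (33.3%) were, beside 39.3% of all. With 6 transcripts these counts are no result about the list. Hnrnpa2b1, a nuclear reader, was at 4.89 and 10.4 FPKM (2.12-fold, 1.48 to 3.09), and Ythdf2, the cytoplasmic reader that speeds decay, had a transcript at 2.02 and 3.96 FPKM (1.96-fold, 1.38 to 2.82). Ythdc1, the nuclear reader, was listed through a retained-intron transcript at 0.823 FPKM in the input and 3.35 FPKM in the RIP, with a ratio of 4.07 (2.72 to 6.27), against 2.15 for Mettl3. The erasers Fto and Alkbh5 were not listed.

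The transcript of Zfp217 itself was listed at 0.004 FPKM in the input and 4.14 FPKM in the RIP, about 160 reads, and at 3.63 FPKM in the Mettl3 RIP. Of 38 genes of its partners and related corepressors 28 were listed, and 4 of 17 transcripts with an input of at least 1 FPKM (23.5%) were at least 2-fold higher, a share near the 20.7% of all. In the plain ratio 9 (52.9%) were, beside 39.3%. Sin3a, the scaffold of a histone deacetylase complex, was at 2.79 FPKM in the input and 14 FPKM in the RIP, 5.01-fold higher (3.92 to 6.46) from about 76.3 and 458 reads. Chd4, the ATPase of the NuRD complex, was at 4.40 and 15.6 FPKM (3.55-fold, 3.0 to 4.23), and Rcor2, a corepressor that binds Kdm1a, at 2.46 and 7.16 FPKM (2.91-fold, 2.02 to 4.28). Their Mettl3 ratios were 1.78, 1.81 and 2.51.

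Ctbp2, the corepressor that binds Zfp217, was at 12 FPKM in the input and 27.4 FPKM in the RIP, 2.28-fold higher (1.86 to 2.81). Hdac1 was at 7.66 and 12.7 FPKM (1.65-fold, 1.27 to 2.18). The lysine demethylase gene Kdm1a had a transcript at 2.07 and 4.49 FPKM (2.17-fold, 1.01 to 5.06), and its main coding transcript was at 0.006 FPKM in the input and 6.80 FPKM in the RIP. Rcor1 was at 0.481 and 1.56 FPKM (3.25-fold, 1.4 to 8.68). Hdac2 was listed through transcripts with an input under 0.01 FPKM, with RIP levels of 4.18 and 2.51 FPKM, and Ctbp1 was not listed.

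Of 18 transcripts of Polycomb and Trithorax genes 2 (11.1%) were at least 2-fold higher, as were 2 of 18 of chromatin remodellers, beside 20.7% of all. These counts were 6 (33.3%) and 5 (27.8%) in the plain ratio, beside 39.3% of all. With so few transcripts these shares are no result about chromatin genes. The histone demethylase gene Kdm6a was at 2.03 and 7.20 FPKM, a ratio of 3.55. At the other end Men1 was at 1.36 and 2.09 FPKM with an interval of 0.90 to 2.70. Zinc finger genes named Zfp, to which Zfp217 belongs, were the largest list by number of genes, with 144 of 417 listed. This list was drawn by gene name and not by a role on chromatin. Of 58 transcripts 5 (8.62%) were at least 2-fold higher. By plain ratio 24 (41.4%) were, close to the 39.3% of all, so the share was low with the pseudocount and not without it. Zfp652 was at 1.51 and 5.35 FPKM, 3.56-fold higher (2.22 to 5.94). The histone genes had none of 8 at 2-fold, with plain ratios between 1.56 and 2.13, of which 1 was above 2. H2afx, the histone variant of DNA damage signalling, was the most abundant of them at 51.9 FPKM in the input and 96.3 FPKM in the RIP.

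Of 130 genes of splicing and hnRNP factors 79 were listed. The share of listed genes over all genes was not computed, so this count is no result about them. At an input of at least 1 FPKM, 20 of 72 transcripts (27.8%) passed 2-fold, beside 20.7% of all. The median log2 ratio of the 72 was 0.73. In the plain ratio 24 of the 72 (33.3%) passed, beside 39.3% of all. The share thus lay above the background on one scale and under it on the other. The highest ratios were those of Nhp2l1, a retained-intron transcript of Acin1 at 1.11 and 12.4 FPKM (11.2-fold, 3.92 to 47.0) and Hnrnpd (8.27-fold, 4.63 to 16.1). Acin1, a protein of the exon junction, had 7 listed transcripts: 5 with an input of at least 1 FPKM and ratios from 1.8 to 11.2, and 2 with an input of 0. Ptbp1, a repressor of exon use, had transcripts with this input at 1.51 and 9.97 FPKM (6.6-fold, 4.2 to 10.9), at 1.79 and 7.84 FPKM (4.37-fold, 1.72 to 13.8) and, near the limit, at 1.69 and 2.63 FPKM (0.27 to 12.7). Of 20 transcripts of genes for 3′ end formation, mRNA export and nuclear decay 3 (15%) were at least 2-fold higher, among them Cpsf4, a subunit of the cleavage factor, at 3.45 and 10.2 FPKM (2.95-fold, 1.97 to 4.54). By plain ratio 9 of the 20 (45%) passed.

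For nuclear transport, 7 of 18 transcripts (38.9%) passed 2-fold, beside 20.7% of all, and the median log2 ratio was 0.81. By plain ratio 11 (61.1%) passed, beside 39.3% of all. Beside Xpo1 these included Rcc1, the exchange factor that charges Ran with GTP on chromatin, at 6.88 and 20.4 FPKM (2.96-fold, 2.32 to 3.81) and Tnpo3, the import receptor of SR proteins, at 6.01 and 17.7 FPKM (2.94-fold, 2.44 to 3.57). Nup85, a scaffold nucleoporin, had the lowest ratio of the list, at 2.88 and 4.63 FPKM (1.61-fold, 0.66 to 4.20).

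The nucleolar and ribosome-assembly list had 6 of 18 transcripts (33.3%) at 2-fold or above, beside 20.7% of all. In the plain ratio it had 7 (38.9%), close to the 39.3% of all. Ubtf, the factor that organises ribosomal DNA for RNA polymerase I, was at 4.72 FPKM in the input and 15.6 FPKM in the RIP, 3.29-fold higher (2.70 to 4.04), and the polymerase subunit gene Polr1c was at 1.91 and 6.54 FPKM (3.42-fold, 1.84 to 6.83). The same Polr1c gene had a retained-intron transcript at 1.23 and 2.13 FPKM, 1.74-fold with an interval of 0.50 to 7.32.

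Cytosolic ribosomal proteins had 12 of 29 transcripts (41.4%) at 2-fold or above, beside 20.7% of all, with a median log2 ratio of 0.77. In the plain ratio 15 (51.7%) were, beside 39.3% of all. Rps2 was at 4.59 and 15.1 FPKM (3.28-fold, 2.10 to 5.28), Rpl13a at 3.23 and 14.8 FPKM (4.57-fold) and Rps15 at 3.57 and 12 FPKM (3.37-fold). The abundant members stood lower: Rps27a was 1.57-fold higher (1.34 to 1.83), and a noncoding transcript of Rpl23, at 73.4 and 119 FPKM, was 1.62-fold higher (1.39 to 1.89). Ribosomal protein genes have many processed pseudogenes that share their sequence, so the split of reads among them is uncertain. A transcript listed under Rpl24, at 3.05 and 4.58 FPKM, is assigned to the neighbouring gene Zbtb11 in GENCODE M21. Mitochondrial ribosomal proteins had 1 of 15 transcripts (6.67%) at 2-fold, Mrps14 at 1.13 and 3.80 FPKM (3.37-fold, 1.13 to 13.1), and 4 (26.7%) in the plain ratio.

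Heat shock proteins and chaperonins had 8 of 18 transcripts (44.4%) at 2-fold or above, beside 20.7% of all, with a median log2 ratio of 0.85. In the plain ratio 11 (61.1%) were, beside 39.3% of all. The list was drawn by gene name, and 1 of the 18, Hspg2, is the proteoglycan perlecan and no chaperone, at 2.09 and 3.86 FPKM. After Bag1 came a retained-intron transcript of Tcp1, a subunit of the cytosolic chaperonin, at 2.88 and 16.1 FPKM (5.6-fold, 2.91 to 11.9), and Dnajc2, a ribosome-bound co-chaperone, at 1.8 and 8.18 FPKM (4.54-fold, 2.78 to 7.80). Dnajb1, the Hsp40 of the heat shock response, was at 6.23 and 9.75 FPKM (1.57-fold, 1.23 to 2.01). Among translation factors and tRNA synthetases 6 of 25 (24%) passed 2-fold, or 14 (56%) in the plain ratio, with the scaffold Eif4g1 at 4.32 and 15.8 FPKM (3.64-fold, 3.02 to 4.43) and the valyl-tRNA synthetase Vars at 6.57 and 19.7 FPKM (3.0-fold, 2.51 to 3.62).

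Cell cycle genes had 7 of 21 transcripts (33.3%) at 2-fold or above, with Trp53, the gene of p53, at 2.21 and 8.53 FPKM (3.86-fold, 2.41 to 6.46) and a nonsense-mediated decay transcript of its ubiquitin ligase Mdm2 at 2.43 and 8.62 FPKM (3.55-fold, 2.47 to 5.23). DNA replication and repair genes had 5 of 25 (20%), RNA polymerase II and Mediator genes 7 of 27 (25.9%) and the ubiquitin system 14 of 70 (20%). In the FGF-ERK list 4 of 21 (19%) passed, among them Mapk3, the kinase ERK1, at 1.58 and 5.55 FPKM (3.52-fold, 1.96 to 6.74) and its feedback inhibitor Spry2 at 17.5 and 36.6 FPKM (2.10-fold, 1.78 to 2.49). In the Wnt and TGF-beta list 4 of 23 (17.4%) passed, among them the Wnt receptor Fzd5 at 4.22 and 14.8 FPKM (3.5-fold, 2.95 to 4.17) and the ligand Nodal at 4.51 and 10.5 FPKM (2.33-fold, 1.68 to 3.27). Smad2, a transducer of Nodal signals, was at 3.37 and 5.13 FPKM (1.52-fold, 1.25 to 1.87). In the plain ratio the counts were 11 of 25 (44%) for replication and repair, 35 of 70 (50%) for the ubiquitin system, 8 of 21 (38.1%) for FGF-ERK and 8 of 23 (34.8%) for Wnt and TGF-beta. They were 9 of 27 (33.3%) for RNA polymerase II and Mediator and 10 of 21 (47.6%) for the cell cycle, beside 39.3% of all. Except for the cell cycle list, the shares of these lists on the log2 scale lay within a few points of 20.7% and are no result about them.

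Of 91 genes of oxidative phosphorylation subunits 37 were listed, of 28 of glycolysis and serine synthesis 17, and of 374 solute carriers 81. Oxidative phosphorylation subunits had 4 of 13 transcripts (30.8%) at 2-fold or above, beside 20.7% of all. In the plain ratio they had 6 (46.2%), beside 39.3% of all. Among the 4 was Ndufa7 of complex I, at 15.6 and 42.9 FPKM (2.75-fold, 1.87 to 4.13). Glycolysis and serine synthesis had 2 of 9 (22.2%), or 4 (44.4%) in the plain ratio, with a retained-intron transcript of Psat1 at 1.97 and 7.17 FPKM (3.65-fold, 2.11 to 6.68), for which the Mettl3 ratio was 22.9. Solute carriers had 5 of 38 (13.2%), led by Slc39a7, and 12 (31.6%) in the plain ratio.

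Of 42 named nuclear long noncoding RNAs 8 were listed. Of 7 transcripts with an input of at least 1 FPKM 4 (57.1%), those of Tug1 and Gas5, were at least 2-fold higher, beside 20.7% of all. The plain ratio gave the same 4, beside 39.3% of all. With 1 transcript per symbol it was 2 of 5 (40%). Those of Malat1, Snhg1 and 6720401G13Rik had plain ratios of 1.77, 1.90 and 1.84, beside a median of 1.87 over all. Tug1, a long noncoding RNA tied to Polycomb, had transcripts at 1.34 and 6.80 FPKM (5.06-fold, 3.54 to 7.42) and at 1.36 and 5.36 FPKM (3.94-fold, 2.91 to 5.42). The Mettl3 ratios of the same transcripts were 28.9 and 5.64. Gas5, a host of C/D box snoRNAs, was at 2.20 and 6.34 FPKM (2.88-fold, 1.70 to 5.09). Malat1, an abundant RNA of nuclear speckles, was listed through a transcript of 556 bases at 3.96 and 7.0 FPKM, 1.77-fold with an interval of 0.79 to 4.29.

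**Figure D4:**
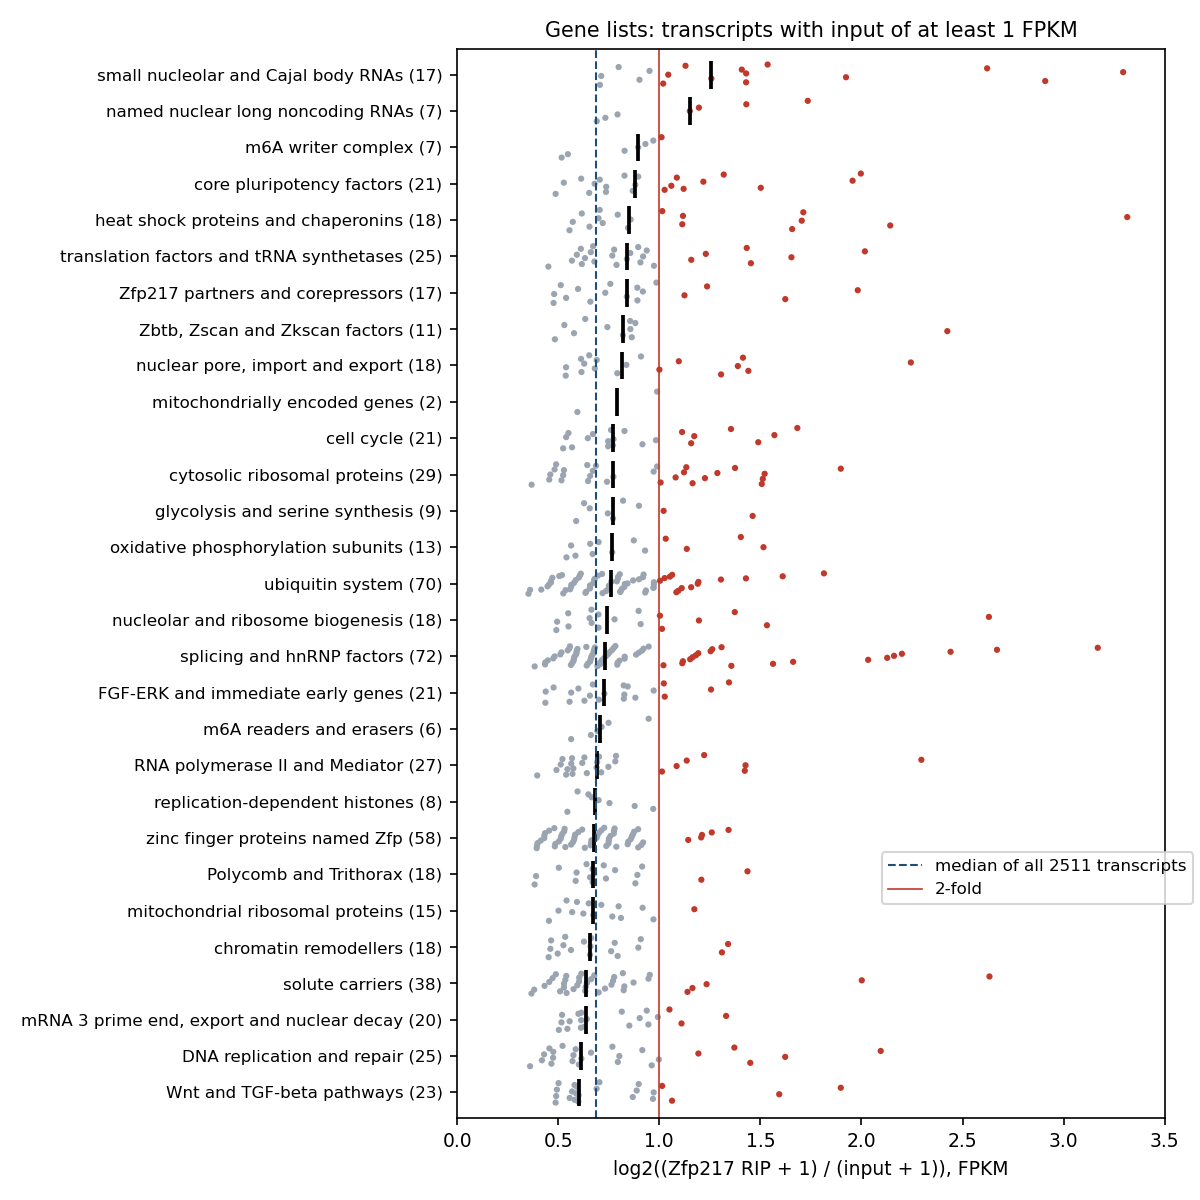
Log2((RIP + 1)/(input + 1)) of each listed transcript in 29 gene lists whose input was at least 1 FPKM (number of transcripts in brackets), red at 2-fold or above, with the median of each list (black bar) and of all 2511 transcripts (dashed line, 0.69). The small nucleolar RNAs and the long noncoding RNAs have medians of 1.26 and 1.15 and the other lists lie between 0.60 and 0.90.

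By transcript class, protein-coding transcripts made up 5082 of the table (62.6%), and 409 of the 1980 with an input of at least 1 FPKM (20.7%) were at least 2-fold higher. Retained-intron transcripts, which keep an intron and are often held in the nucleus, numbered 1136 (14%), and 28 of 162 (17.3%) passed. Processed transcripts without an open frame had 30 of 154 (19.5%), transcripts marked for nonsense-mediated decay 7 of 56 (12.5%) and long intergenic RNAs 5 of 31 (16.1%). Apart from snoRNAs, the classes with at least 50 transcripts at this input level thus had between 12.5% and 20.7%, and the intron-retaining class did not stand above the coding one. In the plain ratio the shares were 39.2% for coding, 36.4% for retained-intron, 45.5% for processed and 23.2% for nonsense-mediated decay transcripts.

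Protein-coding transcripts at least 2-fold higher had a median length of 2097 bases (n = 344 with a known length), and those under 2-fold 2744 bases (n = 1438). Their GC contents were close, at medians of 49.9% and 49.7%, and each had a median of 7 exons. GGACT, the commonest form of the m6A consensus, was counted on the sense strand of the whole transcript: 83.1% of the former and 89.2% of the latter held at least 1 copy, as did 78.7% of all 58797 annotated protein-coding transcripts. Per 1000 bases the medians were 1.0, 1.03 and 1.02 copies. A letter match is a description of the sequence and not a methylated site.

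Several genes had listed transcripts with unlike ratios. Zbtb44 had a transcript at 8.82-fold (4.39 to 20.3) and a further one, at 7.40 FPKM in the input and 13.8 FPKM in the RIP, at 1.87-fold. Sfpq, a paraspeckle protein, had noncoding transcripts at 1.66 and 9.87 FPKM (5.96-fold, 2.77 to 14.9) and at 5.77 and 11.0 FPKM (1.91-fold, 1.12 to 3.38). Gpbp1 had a coding transcript at 4.07-fold (3.03 to 5.53) and a nonsense-mediated decay transcript at 1.82-fold (1.22 to 2.77). Transcript values are shares that the authors' program estimated among overlapping isoforms, so a shift of reads between isoforms and a change of the gene cannot be told apart here.

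The 3588 transcripts with an input under 0.01 FPKM made up 44.2% of the table, and 3157 of them were at exactly 0. Their median RIP level was 1.76 FPKM, and 47.6% of those of at least 300 bases stood for fewer than 10 RIP reads. Their median annotated length was 834 bases, against 2248 bases for transcripts with an input of at least 1 FPKM. Near-zero inputs made up 37.1% of protein-coding, 51.9% of retained-intron, 61.8% of nonsense-mediated decay and 74.0% of snoRNA transcripts. Of 3425 that were not small RNAs, 684 (20%) belonged to a gene symbol with a further transcript at an input of at least 1 FPKM. A near-zero input of a transcript is therefore no sign that its gene was silent.

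Some near-zero transcripts had many RIP reads. A retained-intron transcript of Hnrnpl, a splicing regulator, was at 90.6 FPKM in the RIP, about 337 reads, and at 1.12 FPKM in the Mettl3 RIP. Txnip, an inhibitor of thioredoxin, was at 18.7 FPKM (345 reads) and at 3.41 FPKM for Mettl3. Sumo2 went the other way: 19.2 FPKM for Zfp217 and 146 FPKM for Mettl3. Poldip3 was at 15.3 FPKM, with 15.1 FPKM for Mettl3, and a coding transcript of the poly(A) polymerase gene Papola was at 14.1 FPKM (416 reads), with 8.14 FPKM for Mettl3.

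Gigyf2 had the most listed transcripts, 8, and Acin1, Eif4g1, Huwe1 and Ncor1 had 7 each. For Ncor1, a corepressor that carries Hdac3, 4 of the 7 were at an input of 0, and its longest transcript was at 0.911 FPKM in the input and 4.28 FPKM in the RIP, 4.70-fold higher (3.43 to 6.55), with a Mettl3 ratio of 10.1. For Eif4g1 5 of the 7 were at an input of 0.

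Against Mettl3, values can be set side by side only, since both ratios have the same input library as their divisor. Of the 2511 transcripts with an input of at least 1 FPKM, 1408 (56.1%) were also in the Mettl3 table of 9501 transcripts. These were 364 of the 519 at least 2-fold higher for Zfp217 (70.1%) and 1044 of those under 2-fold (52.4%). Over the 1408, the median plain ratio was 1.95 for Zfp217 and 2.25 for Mettl3, and the Zfp217 ratio was the higher in 520. Over the 364 it was 3.01 for Zfp217, which chose them, and 2.53 for Mettl3.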

How the data were processed

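RIP and input RNA of CCE cells were taken from the authors' deposited table for Zfp217, with the Mettl3 table set beside it. The values are FPKM per Ensembl transcript, made by the authors. Their deposited log2 fold changes lay within 0.00466 of log2(RIP/input) wherever the input was above 0. The submitters' processing notes name the build mm9 and, in no stated role or order, TopHat2 2.0.8, Bowtie2, Cufflinks, Cuffdiff and CASAVA 1.4.

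Ratios were log2((RIP + 1)/(input + 1)), and the pseudocount of 1 FPKM shrinks those of low transcripts. Plain ratios are given for named transcripts, and none where the input was under 0.01 FPKM. Lengths, sequences and gene coordinates came from GENCODE M21 on GRCm38, to which 88.8% of transcripts matched by identifier. Classes and symbols are those of the deposited table, where 20 symbols had become dates. Reads were estimated from the FPKM steps of short RNAs. From 200 bases up a straight line was used, which takes 138 bases off the annotated length, and it was extended to long transcripts. The step was tested on simulated short RNAs only, so its extension to long transcripts was not tested. Python 3.11.15, pandas 2.3.3 and scipy 1.17.1 were used. The members and lists were chosen with earlier results of these data known.

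Genes were named by a rule: the 20 highest log2 ratios, the 10 highest RIP levels, set pluripotency, m6A and corepressor genes, the extremes of each list and class, the highest near-zero transcripts, the lowest ratios, genes with unlike or many transcripts, and high genes absent for Mettl3. Of these the text describes some. Any other gene was named after its values were seen. Some results are not reported here.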

Additional observations from a re-analysis of the deposited data

How the results depend on the processing

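The count of 519 transcripts at least 2-fold higher (20.7% of 2511) moved to 925 (36.8%) with a pseudocount of 0.1 FPKM, 988 (39.3%) for the plain ratio, 302 of 1439 (21%) with an input of at least 2 FPKM and 4744 of 8120 (58.4%) with no filter on the input. It was 712 (28.4%) with a pseudocount of 0.5 FPKM, 774 of 3675 (21.1%) with an input of at least 0.5 FPKM, 473 of 2278 (20.8%) with 1 transcript per symbol, 491 with gene spans from 300 bases up and 409 for protein-coding transcripts. With alternatives chosen after seeing the data, it was 71 of 296 (24%) over genes with 1 annotated transcript and 319 of 1808 (17.6%) over transcripts of at least 300 bases with at least 10 estimated input reads; both hold fewer transcripts. The median log2 ratio of 0.69 became 0.87, 0.77 and 0.90 with a pseudocount of 0.1, of 0.5 and of none, 0.71 and 0.67 with an input of at least 2 and 0.5 FPKM, 1.10 with no filter, 0.69 with 1 transcript per symbol, 0.68 with gene spans from 300 bases up, 0.69 for protein-coding transcripts, 0.72 for genes with 1 transcript and 0.68 with at least 10 input reads. The 3588 transcripts with a near-zero input were 3157 at exactly 0, 3693 under 0.1 FPKM and 3344 with gene spans from 300 bases up. The counts of all 29 lists and 12 classes moved by over 1.5 times with no filter. Near-zero transcripts are listed only above 1 RIP FPKM, so nearly all pass 2-fold by construction (3586 of 3588). The moves with no filter, also of the full count and median, were thus largely fixed in advance. With the plain ratio the counts of 19 lists and 10 classes moved, and with 1 transcript per symbol those of 5 lists and 0 classes. No paired analysis was possible because each group had 1 library, and for the same reason no library could be left out. Depth limits every ratio of short RNAs and of transcripts with few input reads.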

Other observations

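The following values belong to no comparison above and were picked after they were seen. Alb, the gene of serum albumin, which is made by liver, was listed at 0 FPKM in the input and 10.8 FPKM in the Zfp217 RIP, from about 142 estimated reads, and had no entry in the Mettl3 table. Tet1, a DNA demethylase of stem cells, had a transcript at an input of 0 that was at 4.09 FPKM in the Zfp217 RIP and 102 FPKM in the Mettl3 RIP, and a further Tet1 transcript at 6.84 FPKM in the input and 12.1 FPKM in the Zfp217 RIP. Vim was at 0.026 FPKM in the input, 19.7 FPKM in the Zfp217 RIP and 18.2 FPKM in the Mettl3 RIP.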
